A study of Cricetulus griseus with 6 samples.

Results

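The genes described here encode the complexes that form at the death receptors Fas and TNF receptor 1, the caspase that these complexes activate, and 2 proteins that hold caspases back. They are Fas, Tnfrsf1a, Fadd, Tradd, Ripk1, Cyld, Casp8, Cflar and Xiap. These 9 genes were taken from the 14899 genes that had a transcript cluster of their own among 29700 clusters, a cluster being the set of probes that the array assigns to a transcript. They were taken by symbol, with earlier results of these data known, and each is represented by its brightest cluster over the 6 arrays. Fas had a second cluster, which is given beside the first, so that 10 clusters carry the 9 symbols.

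Transcript levels in CHO cells, an ovary-derived Chinese hamster line, were read on Affymetrix CHO Gene ST arrays, and each of the 6 conditions had a single array. CHO-K6 cells, which stably overexpress human HER2 and are kept under G418 selection, were exposed for 24 h to trastuzumab, to pertuzumab or to trastuzumab + pertuzumab, or were left untreated. Parental CHO-K1 cells, labelled wild type, were exposed to trastuzumab + pertuzumab or were left untreated. Each antibody was used at 10 µg/mL, and all cells had first been kept in medium low in serum and were then given fresh medium with full serum. Both antibodies bind the extracellular part of human HER2, a receptor tyrosine kinase, at different sites. CHO-K6 is referred to as a clone. HER2 overexpression, selection and any other difference between the lines cannot be told apart with 1 line of each kind.

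In textbook outline, worked out mostly in human and mouse cells, a ligand brings death receptors together at the cell surface, and their death domains then gather adaptor proteins inside the cell. Fas binds Fadd directly, and Fadd brings in caspase-8, which activates itself there and cleaves the executioner caspases. TNF receptor 1 binds Tradd and Ripk1 and first builds a ubiquitin-decorated complex that signals for survival. When the ubiquitin chains are removed from Ripk1, a process in which the deubiquitinase Cyld takes part, a second complex with Fadd and caspase-8 can form. Cflar, also called FLIP, competes with caspase-8 in these complexes, and Xiap binds and inhibits executioner caspases further down. When caspase-8 is blocked, Ripk1 can instead engage Ripk3 and Mlkl and drive necroptosis.

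Values are log2 signals, so that a difference of 1 is a factor of 2. The array medians lay between 5.89 and 5.91, and 14499 clusters (48.8%) had a mean of 6 or more and are called brighter clusters below. All 9 members were among them. The array was built for hamster genes. Its Erbb2 cluster read 8.80 to 9.21 in CHO-K6 and 8.50 to 8.64 in CHO-K1, and the human transgene was not measured as such. The cells are labelled epithelial, but Epcam (3.98 to 4.65), Krt8 (4.19 to 4.85) and Krt18 (4.40 to 4.99) were dim, and Cdh1 alone of 4 measured epithelial markers reached a mean of 6 (5.86 to 6.49). Vim (13.19 to 13.30) and Fn1 (11.39 to 11.54), both mesenchymal markers, were bright, while the other 3 of 5 measured mesenchymal markers, Cdh2 (5.09 to 5.40), Thy1 (5.04 to 5.41) and Col1a1 (5.78 to 6.12), had means below 6, and 0 of 2 measured leukocyte markers reached a mean of 6. The pertuzumab array stood apart from the other CHO-K6 arrays. Its median absolute difference from them over brighter clusters was 0.14 to 0.18, against 0.08 for each pair among the other 3, and 0.13 between both CHO-K1 arrays. The line differences of the members are therefore given with and without it. In these bulk samples, fewer cells that express a gene and less of its RNA per cell cannot be told apart.

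The first comparison asks how the members differ between the HER2-overexpressing line and its parent. Cyld, Xiap and Cflar were higher in CHO-K6, by 0.625, 0.58 and 0.385 on the log2 scale, or 1.54-fold, 1.49-fold and 1.31-fold. Fadd was lower by 0.59, to 0.664 of its CHO-K1 level. These 4 genes passed limma's moderated test with Benjamini-Hochberg adjustment over 29700 clusters, and the other 5 members did not. Thus 3 of 9 members were called higher, against 8.21% of clusters and 14.3% of brighter ones, and 1 of 9 was called lower, against 7.48% of clusters and 12.5% of brighter ones. The test set 4 CHO-K6 arrays against 2 CHO-K1 arrays. There were no replicate cultures, so the spread inside a line contains the antibody treatments, and the SDs below are spreads over conditions. The median CHO-K6 minus CHO-K1 difference over the 9 was 0.07, beside -0.04 over all clusters tested.

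**Figure D1:**
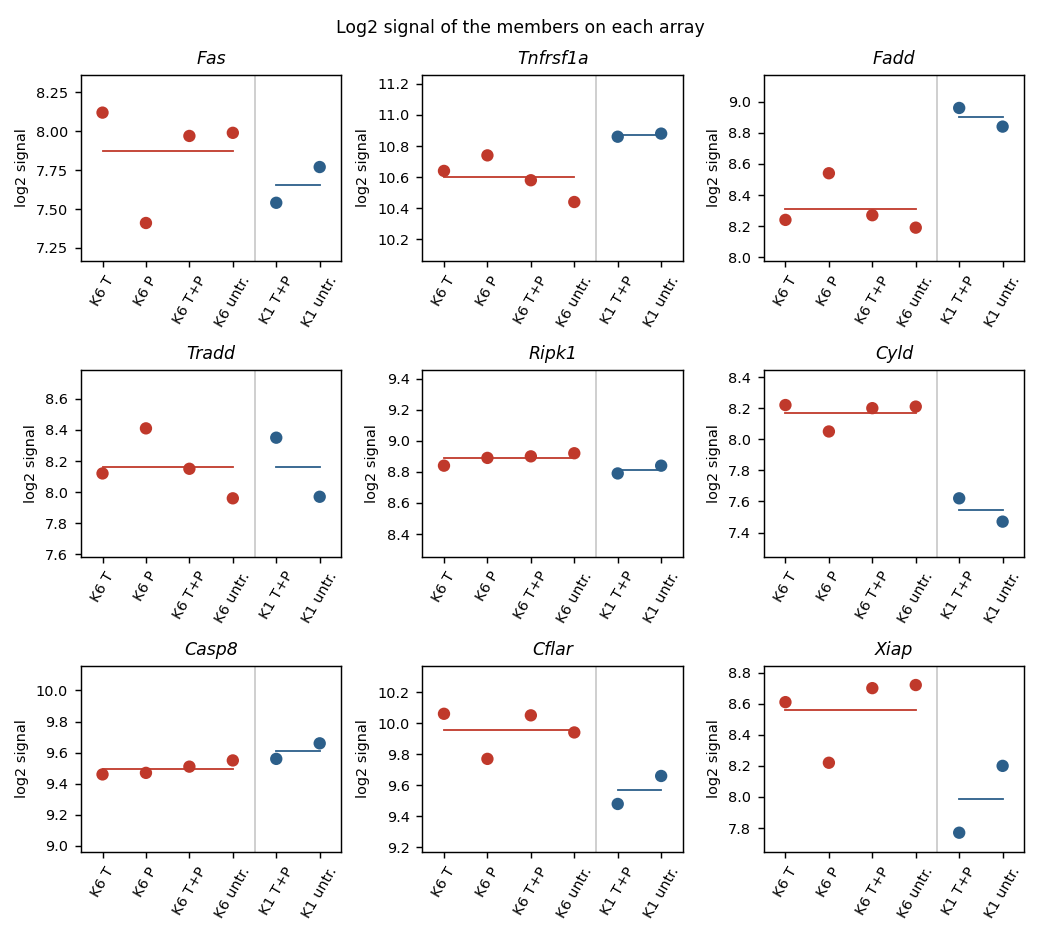
Log2 signal of each of the 9 members on each array, with a panel per gene. The horizontal axis gives the array (K6 is CHO-K6, K1 is CHO-K1, T trastuzumab, P pertuzumab, T+P both and untr. untreated), every point is 1 array and every line is the mean of a cell line; the vertical axes span the same width but are placed around each gene. The CHO-K6 points of Cyld, Cflar and Xiap lie above those of CHO-K1, those of Fadd, Tnfrsf1a and Casp8 lie below, and the pertuzumab array has the lowest CHO-K6 point for Fas, Cyld, Cflar and Xiap.

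Among the receptors, Tnfrsf1a, the receptor for TNF that carries a death domain, read 10.64 with trastuzumab, 10.74 with pertuzumab, 10.58 with the combination and 10.44 untreated in CHO-K6, against 10.86 with the combination and 10.88 untreated in CHO-K1. The 4 CHO-K6 arrays were below both CHO-K1 arrays. The difference of -0.27 (SE 0.083) missed the threshold at an adjusted p of 0.0579 in limma, and it passed without the pertuzumab array (-0.32, adjusted p = 0.00691). Leaving out any other CHO-K6 array gave no call in limma (-0.283 to -0.217, adjusted p from 0.0994 to 0.140). Fas, the receptor for Fas ligand, read 8.12 with trastuzumab, 7.41 with pertuzumab, 7.97 with the combination and 7.99 untreated in CHO-K6, against 7.54 with the combination and 7.77 untreated in CHO-K1. The pertuzumab array of CHO-K6 lay below both CHO-K1 arrays and the other 3 lay above them, so the lines overlapped. The CHO-K6 minus CHO-K1 difference of Fas was 0.22 (SE 0.18, adjusted p = 0.472 in limma). Without the pertuzumab array it was 0.37 (adjusted p = 0.0208). Leaving out any other CHO-K6 array gave 0.135 to 0.185 and no call in limma (adjusted p from 0.627 to 0.710). The second Fas cluster differed by -0.07 between the lines (adjusted p = 0.658 in limma), with 7.36 to 7.50 in CHO-K6 and 7.45 to 7.59 in CHO-K1, so the clusters gave opposite signs.

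Of the adaptors, Fadd showed the clearest fall. Fadd, which links death receptors to caspase-8, read 8.24 with trastuzumab, 8.54 with pertuzumab, 8.27 with the combination and 8.19 untreated in CHO-K6, against 8.96 with the combination and 8.84 untreated in CHO-K1. The lines were apart, and the pertuzumab array came nearest to CHO-K1. Fadd averaged 8.31 ± 0.16 in CHO-K6 (SD, n = 4) and 8.90 ± 0.085 in CHO-K1 (SD, n = 2), a difference of -0.59 (SE 0.11, adjusted p = 0.0079 in limma). It was called after leaving out each array in turn but 1, the CHO-K1 combination array, without which it was -0.53 (adjusted p = 0.0895). Without the pertuzumab array it was -0.67 (adjusted p = 2.72e-04). Tradd, the adaptor that binds TNF receptor 1, read 8.12 with trastuzumab, 8.41 with pertuzumab, 8.15 with the combination and 7.96 untreated in CHO-K6, against 8.35 with the combination and 7.97 untreated in CHO-K1. Its signals overlapped between lines and both lines averaged 8.16, a difference of 0 (SE 0.14), or -0.083 without the pertuzumab array (adjusted p = 0.658 in limma).

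The kinase and the deubiquitinase that act on the same ubiquitin-bearing complex behaved differently from each other. Ripk1, the kinase, had the narrowest range of any member, with 8.84, 8.89, 8.90 and 8.92 in CHO-K6 under trastuzumab, pertuzumab, the combination and no antibody, against 8.79 with the combination and 8.84 untreated in CHO-K1. Its difference between the lines was 0.07 (SE 0.074, adjusted p = 0.562 in limma), and 0.072 without the pertuzumab array (adjusted p = 0.518). Cyld, which trims ubiquitin chains from Ripk1 and other proteins, read 8.22 with trastuzumab, 8.05 with pertuzumab, 8.20 with the combination and 8.21 untreated in CHO-K6, against 7.62 with the combination and 7.47 untreated in CHO-K1. The lines lay far apart relative to the range inside each. Cyld averaged 8.17 ± 0.080 in CHO-K6 (SD, n = 4) and 7.55 ± 0.11 in CHO-K1 (SD, n = 2). Its difference of 0.625 (SE 0.094, adjusted p = 0.00279 in limma) was the only member call that held after leaving out each of the 6 arrays in turn (0.55 to 0.70, adjusted p from 4.26e-04 to 0.0292), with 0.665 and the lowest of these p-values without the pertuzumab array.

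Caspase-8 and its inhibitor were not alike. Casp8, the initiator caspase of both complexes, read 9.46 with trastuzumab, 9.47 with pertuzumab, 9.51 with the combination and 9.55 untreated in CHO-K6, against 9.56 with the combination and 9.66 untreated in CHO-K1. The lines did not overlap, but by a margin of 0.01, and the difference of -0.11 (SE 0.071) was not called (adjusted p = 0.327 in limma), nor was it without the pertuzumab array (-0.10, adjusted p = 0.309). Cflar, the caspase-8 relative without protease activity, read 10.06 with trastuzumab, 9.77 with pertuzumab, 10.05 with the combination and 9.94 untreated in CHO-K6, against 9.48 with the combination and 9.66 untreated in CHO-K1. Every CHO-K6 array was above both CHO-K1 arrays, and the pertuzumab array was again the nearest to them. Cflar averaged 9.96 ± 0.13 in CHO-K6 (SD, n = 4) and 9.57 ± 0.13 in CHO-K1 (SD, n = 2), and the difference of 0.385 (SE 0.099) was called at an adjusted p of 0.0297 in limma. This call rested on the full set of arrays. It held without the pertuzumab array (0.45, adjusted p = 0.00198) and was lost without each of the other 5 (0.295 to 0.475, adjusted p from 0.053 to 0.241). In the fit with treatment as a covariate on the untreated and combination arrays of both lines it was 0.425 and not called (adjusted p = 0.0693).

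Xiap, the inhibitor of executioner caspases, had the widest range over the 6 arrays. It read 8.61 with trastuzumab, 8.22 with pertuzumab, 8.70 with the combination and 8.72 untreated in CHO-K6, against 7.77 with the combination and 8.20 untreated in CHO-K1. CHO-K6 was higher throughout, but the pertuzumab-treated CHO-K6 array and the untreated CHO-K1 array were 0.02 apart, and after quantile normalization they overlapped (8.198 and 8.218). Xiap averaged 8.56 ± 0.23 in CHO-K6 (SD, n = 4) and 7.99 ± 0.30 in CHO-K1 (SD, n = 2), and the difference of 0.58 (SE 0.16) passed narrowly at an adjusted p of 0.0444 in limma. Without the pertuzumab array it was 0.69 (adjusted p = 0.00217) and without the untreated CHO-K1 array 0.79 (adjusted p = 0.0394). Leaving out any 1 of the other 4 arrays ended the call. The lowest difference was 0.36 (adjusted p = 0.339), without the CHO-K1 combination array.

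All CHO-K6 arrays were above both CHO-K1 arrays for 3 of 9 members (Cyld, Cflar and Xiap), against 15.9% of clusters and 24.4% of brighter ones. All were below for 3 of 9 (Tnfrsf1a, Fadd and Casp8), against 21.1% of clusters and 25.0% of brighter ones. In the untreated arrays alone, 2 of 9 members differed by 1.5-fold or more between CHO-K6 and CHO-K1, Cyld by 0.74 and Fadd by -0.65, against 9.64% of clusters. None of the 9 differed by 2-fold, against 2.10% of clusters and 410 of 14499 brighter ones. Between the arrays treated with both antibodies, 2 of 9 differed by 1.5-fold or more, Xiap by 0.93 and Fadd by -0.69, against 12.1% of clusters. By 2-fold 0 of 9 differed between these arrays, against 3.02% of clusters and 648 of 14499 brighter ones. Cyld and Cflar came just short of 1.5-fold there, at 1.49-fold and 1.48-fold. The Xiap difference between the lines was thus larger under the combination (0.93) than without antibody (0.52), and that of Cflar too (0.57 against 0.28), while that of Cyld was smaller (0.58 against 0.74). Whether the combination acted differently in the lines could not be tested, since 4 arrays leave no residual degrees of freedom for it.

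**Figure D2:**
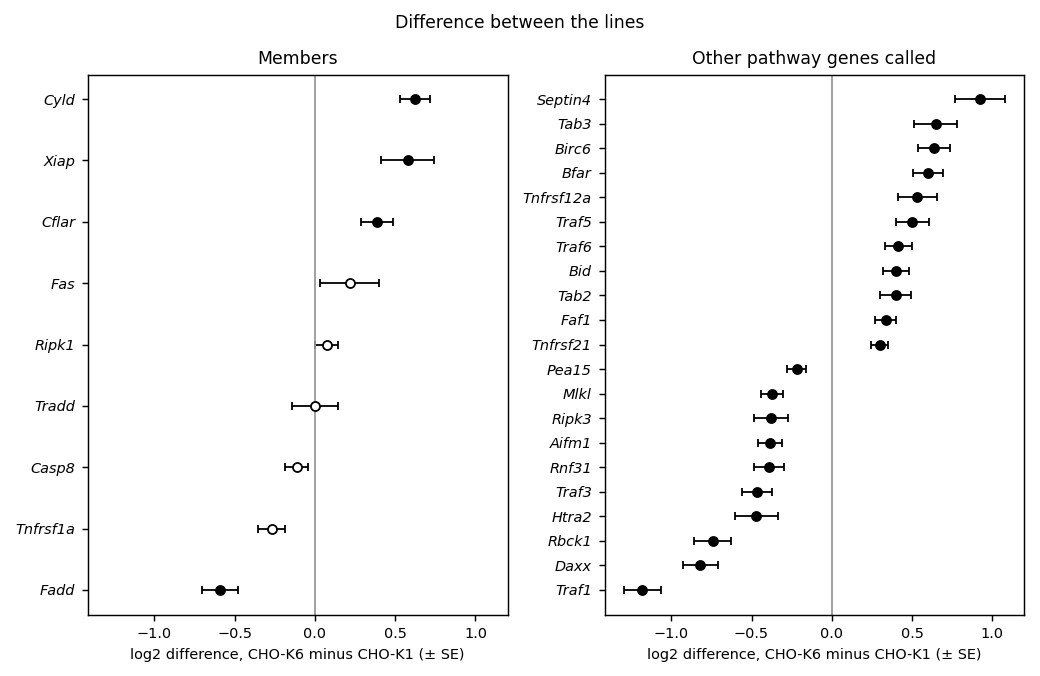
Log2 difference, CHO-K6 minus CHO-K1, with its standard error from limma, for the 9 members (left) and for the 21 other pathway genes that were called (right). Filled points were called at an adjusted p below 0.05 and open points were not. Cyld (0.625), Xiap (0.58) and Cflar (0.385) are the filled members to the right of 0 and Fadd (-0.59) is the filled member to the left.

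The second set of comparisons asks what each antibody did in CHO-K6 cells, with the combination in CHO-K1 cells beside it. All 3 differences in CHO-K6 share the same untreated array, and none has a replicate or a test. With trastuzumab the members moved little. Of 9 members, 6 were above and 3 below untreated CHO-K6, with differences from -0.11 (Xiap) to 0.20 (Tnfrsf1a) and a median of 0.05, beside 0.01 over brighter clusters. The median absolute difference was 0.11 over the members and 0.08 over brighter clusters. None of 9 reached 1.5-fold, against 1.31% of clusters, or 2-fold, against 0.0976%. Of 14499 brighter clusters 0 reached 2-fold, so at that threshold the members did as brighter clusters did. The share of brighter clusters past 1.5-fold was not computed for any comparison. Tnfrsf1a was 0.20 higher, a difference that 8.56% of brighter clusters equalled or exceeded in that direction, Tradd was 0.16 higher and Fas 0.13 higher.

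With pertuzumab the members spread wider. The receptor Fas was 0.58 lower and Xiap 0.50 lower than in untreated CHO-K6, while the adaptors Tradd and Fadd were 0.45 and 0.35 higher and the receptor Tnfrsf1a was 0.30 higher. The median absolute difference was 0.30 over the members, against 0.18 over brighter clusters on this array. Differences at least as large in the same direction were found for 3.35% of brighter clusters in the case of Fas, 5.02% for Xiap, 2.82% for Tradd, 7.99% for Fadd and 12.4% for Tnfrsf1a. Cflar (-0.17), Cyld (-0.16), Casp8 (-0.08) and Ripk1 (-0.03) differed less. In all, 3 of 9 were above and 6 below the untreated array, and 0 of 9 reached 1.5-fold, against 4.35% of clusters, or 2-fold, against 0.593%. Of 14499 brighter clusters 91 reached 2-fold. Fas, at 0.669 of its untreated level, came just short of 1.5-fold. The Fas difference came from the brighter of its clusters, and the other was only 0.08 lower (7.36 with pertuzumab, 7.44 untreated).

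**Figure D3:**
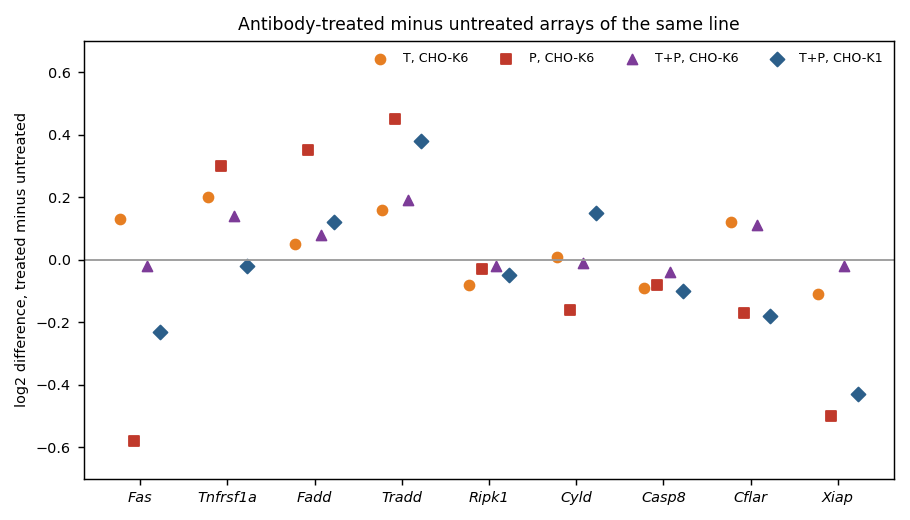
Log2 difference of each antibody-treated array from the untreated array of the same line, for the 9 members in order of their roles. Circles, squares and triangles are trastuzumab (T), pertuzumab (P) and both (T+P) in CHO-K6, which share the untreated CHO-K6 array, and diamonds are both antibodies in CHO-K1. The squares of Fas (-0.58) and Xiap (-0.50) are the lowest points and those of Tradd (0.45), Fadd (0.35) and Tnfrsf1a (0.30) are high, while the triangles stay between -0.04 and 0.19.

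With both antibodies together the CHO-K6 members stayed close to the untreated array. Differences ran from -0.04 (Casp8) to 0.19 (Tradd) with a median of -0.01, and Fas and Xiap, the lowest members under pertuzumab alone, each differed by -0.02. The median absolute difference was 0.04 over the members, below the 0.08 of brighter clusters. None of 9 reached 1.5-fold, against 1.55% of clusters, or 2-fold, against 0.118%. Of 14499 brighter clusters 0 reached 2-fold here too. In CHO-K1, which carries no HER2 transgene, the same combination went with larger differences than in CHO-K6 for several members. Xiap was 0.43 lower and Tradd 0.38 higher than in untreated CHO-K1, which 3.81% and 2.23% of brighter clusters equalled or exceeded in the same direction. Fas was 0.23 lower, Cflar 0.18 lower, Cyld 0.15 higher and Fadd 0.12 higher. None of 9 reached 1.5-fold, against 3.01% of clusters, or 2-fold, against 0.249%. Of 14499 brighter clusters 13 reached 2-fold in CHO-K1. The median over the members was -0.05 and the median absolute difference 0.15, against 0.13 over brighter clusters.

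At the same dose and time, pertuzumab and trastuzumab differed most in Fas. Fas read 7.41 with pertuzumab and 8.12 with trastuzumab, a difference of -0.71 that 2.19% of brighter clusters equalled or exceeded in the same direction, and its second cluster read 7.36 with pertuzumab and 7.49 with trastuzumab. This was the 1 member of 9 that reached 1.5-fold between the antibodies, against 4.49% of clusters, and 0 of 9 reached 2-fold, against 0.768%. Of 14499 brighter clusters 133 reached 2-fold between the antibodies. Xiap was 0.39 lower and Cflar 0.29 lower with pertuzumab than with trastuzumab, while Fadd was 0.30 higher and Tradd 0.29 higher. Casp8 (0.01), Ripk1 (0.05), Tnfrsf1a (0.10) and Cyld (-0.17) differed less. These are differences between single arrays, and the pertuzumab array differed from the trastuzumab array over brighter clusters in general, by a median absolute difference of 0.17. How much of the members' differences belongs to that general shift was not tested.

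The pertuzumab array of CHO-K6 and the combination array of CHO-K1, each set against its own untreated array, share no array. Of 9 members, 7 (77.8%) differed in the same direction in both, among them Tradd (0.45 in CHO-K6 with pertuzumab and 0.38 in CHO-K1 with the combination), Fas (-0.58 and -0.23), Xiap (-0.50 and -0.43) and Cflar (-0.17 and -0.18). Tnfrsf1a (0.30 and -0.02) and Cyld (-0.16 and 0.15) differed in opposite directions. The share of brighter clusters with the same direction was 73.2%, so that the members did as brighter clusters in general did. The distance of each antibody signal from the untreated arrays of both lines was also compared, a description that uses the untreated CHO-K6 array for each antibody. The pertuzumab signal was nearer to untreated CHO-K1 than to untreated CHO-K6 for 6 of 9 members (Fas, Tnfrsf1a, Fadd, Tradd, Cflar and Xiap), against 45.3% of brighter clusters. The trastuzumab signal was nearer to untreated CHO-K1 for 2 of 9 (Tradd and Ripk1), against 21.4%, and the combination signal for 1 of 9 (Tradd), against 24.2%. Tradd entered each of these counts by a margin of 0.01, since its untreated arrays differed by 0.01. Being nearer did not mean lying between, since with pertuzumab Fas was below and Tradd above both untreated arrays. Cyld stayed with CHO-K6 under each antibody, at 0.16 from untreated CHO-K6 and 0.58 from untreated CHO-K1 with pertuzumab.

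Because Cflar and Casp8 compete in the same complexes, their balance was followed as well, relative to untreated CHO-K1, since signals of different genes cannot be compared directly. These pairs were chosen after the values were seen. The log2 ratio of Cflar to Casp8 was higher than in untreated CHO-K1 by 0.60 with trastuzumab, 0.30 with pertuzumab, 0.54 with the combination and 0.39 without antibody in CHO-K6, against -0.08 with the combination in CHO-K1. The ratio of Cflar to Fadd, the adaptor that recruits both, was higher by 1.00 with trastuzumab, 0.41 with pertuzumab, 0.96 with the combination and 0.93 without antibody in CHO-K6, against -0.30 with the combination in CHO-K1. Cflar and Fadd had already been called between the lines in opposite directions, so that the separation of their ratio follows from the single genes. Casp8 (-0.11) was not called, and in its pairs the separation lay mainly with Cflar (0.385) and Xiap (0.58). The ratio of Xiap to Casp8 was higher by 0.61 with trastuzumab, 0.21 with pertuzumab, 0.65 with the combination and 0.63 without antibody in CHO-K6, against -0.33 with the combination in CHO-K1.

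**Figure D4:**
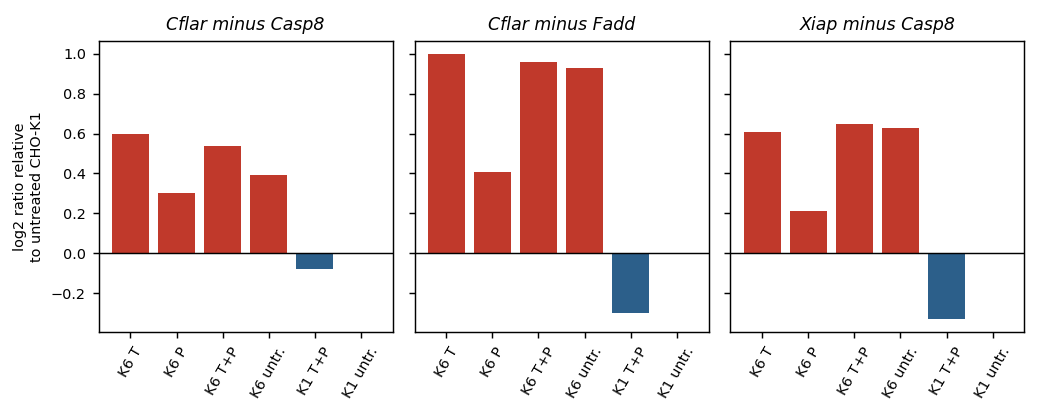
Log2 ratio of the signals of 3 pairs of members on each array, as bars from 0, relative to untreated CHO-K1, which is 0 by construction. Red bars are CHO-K6 and blue bars are CHO-K1, with T trastuzumab, P pertuzumab, T+P both and untr. untreated. The CHO-K6 bars of the ratio of Cflar to Fadd run from 0.41 with pertuzumab to 1.00 with trastuzumab, and the CHO-K1 combination bar is at -0.30.

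Other genes of the same pathways were read from a list of 73 symbols, of which 49 had a cluster of their own, and 43 of these were brighter clusters. Another 6 occurred solely on clusters shared with other symbols, and 18, the executioner caspases among them, are not analysed here. Between the lines, 11 of the 49 were called higher in CHO-K6, 10 lower and 28 not, at the same adjusted p in limma, against 8.21% and 7.48% of all clusters and 14.3% and 12.5% of brighter ones. Without the pertuzumab array 14 were called higher and 11 lower. Over all 29700 clusters that fit called 3905 higher and 3672 lower, against 2437 and 2223 with all 6 arrays. The counts by role that follow come from all 6 arrays and are to be read against the shares given above. The median difference of the 49 was 0.01, beside -0.04 over all clusters. Of the 5 ligands 0 were called in limma, also at an unadjusted p below 0.05, and 1 of the 5 was a brighter cluster. Of the 4 other receptors, Tnfrsf12a, the receptor for TWEAK (0.53, adjusted p = 0.0175), and Tnfrsf21, a receptor with a death domain (0.30, adjusted p = 0.00594), were called higher.

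Among 18 adaptors and ubiquitin enzymes of the receptor complexes, 4 were called higher and 4 lower. Traf1, an adaptor of TNF receptor family complexes, showed the largest fall, with 6.48 under trastuzumab, 6.60 under pertuzumab, 6.57 under the combination and 6.41 untreated in CHO-K6, against 7.85 with the combination and 7.54 untreated in CHO-K1 (-1.18, SE 0.12, adjusted p = 3.22e-04 in limma). Genes for the enzyme that builds linear ubiquitin chains, which Cyld removes, were lower too. Its catalytic subunit Rnf31 differed by -0.39 (adjusted p = 0.0225) and its subunit Rbck1 by -0.74 (adjusted p = 0.00351), while the accessory subunit Sharpin, at -0.14, did not pass (adjusted p = 0.268). Otulin, the other enzyme that removes linear chains, was at 0.27 (adjusted p = 0.058), and Spata2, which joins Cyld to the complex, at -0.25 (adjusted p = 0.0693), and neither passed. Sharpin, Otulin and Spata2 were named after their values were seen. Traf3, a relative of Traf1, was lower by 0.465 (adjusted p = 0.0105). Tab3 (0.65), Traf5 (0.50), Traf6 (0.42) and Tab2 (0.40) were higher, with adjusted p from 0.0108 to 0.0225. Traf5 and Traf6 belong to the same family of receptor adaptors as Traf1. Tab2 and Tab3 bind ubiquitin chains as partners of the kinase Map3k7, itself at 0.35 and not called (adjusted p = 0.0561).

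Of 12 genes of the death-inducing complexes and of necroptosis, 1 was called higher and 4 lower. Faf1, a protein that binds Fas, was higher by 0.34. Daxx, a Fas-binding protein that also serves as a histone chaperone, read 8.73 with trastuzumab, 8.79 with pertuzumab, 8.62 with the combination and 8.42 untreated in CHO-K6, against 9.49 with the combination and 9.43 untreated in CHO-K1 (-0.82, SE 0.11, adjusted p = 0.00148 in limma). The necroptosis kinase Ripk3 (-0.38, adjusted p = 0.0412) and its substrate Mlkl (-0.37, adjusted p = 0.00841) were both lower, Ripk3 at a dim signal of 4.74 to 4.88 in CHO-K6 and 5.16 to 5.27 in CHO-K1. Pea15, which binds Fadd and caspase-8 through a death effector domain, was lower by 0.22 (adjusted p = 0.0396). Of 6 downstream genes, Bid, the substrate by which caspase-8 reaches mitochondria, was higher by 0.40 (adjusted p = 0.0109), and the mitochondrial proteins Htra2 (-0.47, adjusted p = 0.0435) and Aifm1 (-0.38, adjusted p = 0.00939) were lower.

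The list of inhibitors of apoptosis besides Xiap had 4 measured genes, of which 3 were called higher and 0 lower in limma, with 0 lower at an unadjusted p below 0.05 as well. Birc6, a very large member of the family with ubiquitin ligase activity, was higher by 0.64 (adjusted p = 0.00369), and Bfar, a ubiquitin ligase of the endoplasmic reticulum, by 0.60 (adjusted p = 0.00362). Septin4, the third, does not itself inhibit apoptosis, since 1 of its isoforms is known to antagonise Xiap. It read 7.89 with trastuzumab, 8.15 with pertuzumab, 8.01 with the combination and 7.85 untreated in CHO-K6, against 7.33 with the combination and 6.77 untreated in CHO-K1. The difference of 0.925 (SE 0.16, adjusted p = 0.00476 in limma) was the largest rise of the 49 genes. Api5 (0.215, adjusted p = 0.213) was not called.

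Under the antibodies the 49 genes moved less than between the lines, as did clusters in general. In CHO-K6, 0 of 49 reached 1.5-fold with trastuzumab, with pertuzumab or with both, and 0 of 49 did so between pertuzumab and trastuzumab, against 5 of 49 between the untreated lines and 7 of 49 between the lines under the combination. Over all clusters the shares past 1.5-fold were 1.31%, 4.35%, 1.55% and 4.49% in these CHO-K6 comparisons, against 9.64% and 12.1% between the lines. Among the brighter 43, Daxx was the highest with trastuzumab (0.31) and with pertuzumab (0.37), relative to the same untreated array. Tnfrsf25, a death receptor, was the lowest with trastuzumab (-0.20), and Api5 was the lowest with pertuzumab (-0.34) and with both antibodies (-0.22). With both, Tnfrsf1b, the TNF receptor without a death domain, and Daxx were the highest (0.20 each). Between pertuzumab and trastuzumab, Rbck1 was the highest (0.44) and Map3k7 the lowest (-0.34). In CHO-K1 the combination went with the highest difference in Septin4 (0.56) and the lowest in Tab3 (-0.44), and 0 of 49 reached 1.5-fold there. Between the lines, Septin4 was the highest (1.08) and Traf1 the lowest (-1.13) in the untreated arrays, and Tab3 the highest (0.95) and Traf1 the lowest (-1.28) in the combination arrays.

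For the 5 members whose signal ranged over 0.5 or more, the genes with the most similar pattern over the 6 arrays were sought among 3349 genes. These had a mean of 6 or more and a range of 0.5 or more, and were not matched to each member. The arrays fall into the 2 lines, so these Pearson correlations are descriptions over 6 points and largely follow the line. For Cyld they were Rab28 (r = 1.00 after rounding), Dennd5b and Cmah (0.998 each). For Fadd they were Mob3a, Slc12a7 and Tmem223 (0.999 each). Cflar was followed most closely by Dock3 (0.997), Rbpj (0.996) and Adamts6 (0.995), and Xiap by Tmed5 (0.999), Itch (0.997) and Ppip5k2 (0.996). For Fas, whose range was set by the pertuzumab and trastuzumab arrays of CHO-K6, the closest were Fpgt (0.993) and 2 genes known by locus numbers alone.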

How the data were processed

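The deposited table holds log2 signals per transcript cluster, made by the authors with the Affymetrix Transcriptome Analysis Console. The submitters' processing notes also name the Affymetrix Expression Console. The normalization method and the genome build are not given in the sources used here. A second deposited log2 table, the series matrix, differed by at most 0.005 on shared clusters. The signals were used as deposited, with no count or depth behind them, so the number of arrays limits the precision.

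Symbols came from the array platform's annotation, which gave 16481 clusters 1 symbol and 793 several. The members, the pathway list and the tests were chosen with earlier results of these data known. The line comparison (4 CHO-K6 against 2 CHO-K1 arrays) was fitted over 29700 clusters in limma 3.58.1 (R 4.3.3) with an intensity trend and Benjamini-Hochberg adjustment and called below 0.05. The p-values measure the spread between these arrays alone. Comparisons of single arrays have no test and use thresholds of 1.5-fold and 2-fold. Named were all members, the pathway genes called between the lines, the highest and lowest brighter pathway gene of each other comparison, and the 3 genes most like each member with a range of 0.5 or more. Alternatives were quantile normalization, centred array medians, the series matrix, a mean of 6 or more, no trend, a treatment covariate, the mean of a gene's clusters, another reference for the antibodies and each array left out. Those for the pathway counts and for the ratio of Cflar to Casp8 were added after seeing the data.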

Additional observations from a re-analysis of the deposited data

Results flagged for a closer look

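In 34 genes, the 9 members and 25 pathway genes that were called between the lines or highest or lowest in a comparison, the 4 CHO-K6 arrays were searched for 1 array far from the other 3, using Dixon's 95% critical value for the gap over the range. Chance alone marks about 1 group in 20 when groups are chosen without regard to their values and hold replicates. Here the 25 pathway genes were picked by their values on these arrays, and the 4 arrays are different treatments. That rate therefore need not hold. In 2 genes an array passed. Cyld read 8.05 with pertuzumab, below the other CHO-K6 arrays by 0.882 of the range. Ripk3 read 4.74 with trastuzumab, below the others by 0.857 of the range, at a dim signal.

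The combination differed in sign between the lines for 3 of 9 members, and these differences were not tested, since each rests on 4 single arrays. The share of all clusters that differed in sign was not computed. Tnfrsf1a in CHO-K1 and Cyld in CHO-K6 lay close to no difference. Both were below the median absolute differences over brighter clusters, 0.13 in CHO-K1 and 0.08 in CHO-K6, so their signs carry little weight. Tnfrsf1a was 0.14 higher with the combination in CHO-K6, against -0.02 in CHO-K1, a difference of 0.16. Cyld was at -0.01 in CHO-K6, against 0.15 in CHO-K1, a difference of -0.16. Cflar was at 0.11 in CHO-K6, against -0.18 in CHO-K1, a difference of 0.29.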

How the results depend on the processing

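No member called in the line comparison changed sign under the alternatives run, and for the pathway genes counts alone were recomputed. Of the members called, Cyld and Fadd were called under all 7 alternatives other than single arrays left out, Cflar under 5 and Xiap under 4. Cflar was lost without the intensity trend (0.385, adjusted p = 0.063) and with the treatment covariate on the untreated and combination arrays (0.425, adjusted p = 0.0693), which uses fewer arrays. Xiap was lost with quantile normalization (0.538, adjusted p = 0.0607), with the series matrix (0.575, adjusted p = 0.0605) and without the trend (0.578, adjusted p = 0.0684). The series matrix holds nearly the same signals, but its fit and adjustment ran over 30934 clusters in place of 29700. Tnfrsf1a was called with a mean of 6 or more (adjusted p = 0.0386, with fewer clusters tested) and with the covariate (adjusted p = 0.0443). Without the trend 2 members were called in place of 4, and with the covariate 7 pathway genes were called higher in place of 11. Calls over all clusters were fewer as well under both settings. They were 1958 higher and 1849 lower without the trend, and 1833 higher and 1556 lower with the covariate. The main fit had 2437 higher and 2223 lower. The cause was not tested. Leaving out each array in turn, 1 to 6 members were called, 3 to 14 pathway genes were called higher and 2 to 11 lower, and over all clusters 881 to 3905 were higher (2437 with all arrays) and 693 to 3672 lower (2223 with all arrays). The lowest counts came without the CHO-K1 combination array and the highest without the pertuzumab array, and a single remaining CHO-K1 array was assumed to vary like the others. No paired analysis was possible because every condition has 1 array, so that replicate numbers pair nothing. The treatments that both lines share enter as the covariate above.

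At 1.5-fold in place of 2-fold, 2 members in place of 0 passed between the untreated lines, 2 between the lines under the combination and 1 between pertuzumab and trastuzumab. Among clusters with a mean of 6 or more, 410 clusters in place of 623 passed 2-fold between the untreated lines, 0 in place of 29 with trastuzumab, 91 in place of 176 with pertuzumab, 0 in place of 35 with both antibodies in CHO-K6, 13 in place of 74 with both in CHO-K1, and 133 in place of 228 between pertuzumab and trastuzumab, fewer by construction. Medians over the members ran from -0.08 to 0.11 in the main setting. They moved by less than the spread of 0.133 used for them, but this spread is larger than any of them. It could therefore not show them to be stable, and 2 of them changed sign. With the average of the remaining antibody-treated arrays of CHO-K6 in place of the untreated one, the median was -0.02 with trastuzumab and 0.045 with both antibodies, and with the mean of a gene's clusters it was 0.02 with both. The ratio of Cflar to Casp8 kept its sign on each array with the series matrix and with quantile normalization. With the series matrix no sign could change, since its signals differed by at most 0.005. Quantile normalization moved the ratio little, from 0.60 to 0.612 with trastuzumab in CHO-K6 and from -0.08 to -0.0783 with the combination in CHO-K1. Neither setting is therefore a check on the ratio.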
